A study of Mus musculus with 6 samples.

Results

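The BCL2 family of apoptosis regulators was followed here through 10 of its genes, Bcl2, Bcl2l1, Mcl1, Bax, Bak1, Bad, Bid, Bcl2l11, Bbc3 and Pmaip1. Members were found by their symbols in the expression table, which held 17794 genes; all 10 were present, and all 10 had enough reads to be tested. RNA sequencing was done on whole corneas of mice in which benzalkonium chloride, a detergent preservative, had produced experimental dry eye. The 3 luteolin libraries came from animals given luteolin, a plant flavone, for 10 days, and the 3 vehicle libraries from animals given vehicle for the same 10 days. Every animal of both groups had received benzalkonium chloride, and undamaged corneas were not analysed here. The labels name no strain, sex, age, dose or route, nor do they state whether a library was a single animal or a pool. The p-values below therefore weigh differences against library-to-library spread that could be technical.

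BCL2 family proteins decide whether the outer mitochondrial membrane is opened and cytochrome c is released, the step that commits a cell to apoptosis by the intrinsic route. Antiapoptotic members (BCL2, BCL-XL, the main product of Bcl2l1, and MCL1) hold the effectors BAX and BAK in check. The BH3-only members (BAD, BID, BIM, encoded by Bcl2l11, PUMA, encoded by Bbc3, and NOXA, encoded by Pmaip1) relay stress signals by binding either the antiapoptotic proteins or the effectors. Much of this control acts on the proteins, by cleavage, phosphorylation and turnover, and transcript levels do not show it. In the cornea, epithelial cells are shed and replaced throughout life, and benzalkonium chloride is known to cause death of surface cells.

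Library totals lay between 16084855 and 16469699 estimated counts. A quasi-likelihood test in edgeR covered 13838 genes, and 58.9% of them passed at an adjusted p under 0.05 (Benjamini-Hochberg); 28.5% were higher and 30.4% lower with luteolin. Scaled by library sizes only, the split was 2943 higher and 5153 lower, against 3949 and 4208 with TMM factors. The groups' libraries did not overlap for 67.4% of tested genes. The tissue label was checked on corneal epithelium markers, whose 10 genes summed to between 69301 and 71005 TPM in luteolin libraries and to between 48226 and 53208 TPM in vehicle libraries. A gene's level in whole tissue can be lower because fewer cells of a type are present or because each holds less of its RNA, and these cannot be told apart here.

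With luteolin, transcripts of the antiapoptotic genes Bcl2 and Bcl2l1 and of the BH3-only gene Bid were higher, and transcripts of both effectors, Bax and Bak1, and of the BH3-only gene Pmaip1 were lower. Of the 10 members 3 rose, 3 fell and 4 did not pass the test, so 6 of 10 were called, a share close to the 58.9% over all tested genes. Libraries of the groups did not overlap for 7 of the 10, a share close to the 67.4% over all tested genes. The median log2 fold change of the 10 members was -0.21, beside -0.02 for all tested genes. The median size of the change without its sign was 0.45, beside 0.40.

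**Figure D1:**
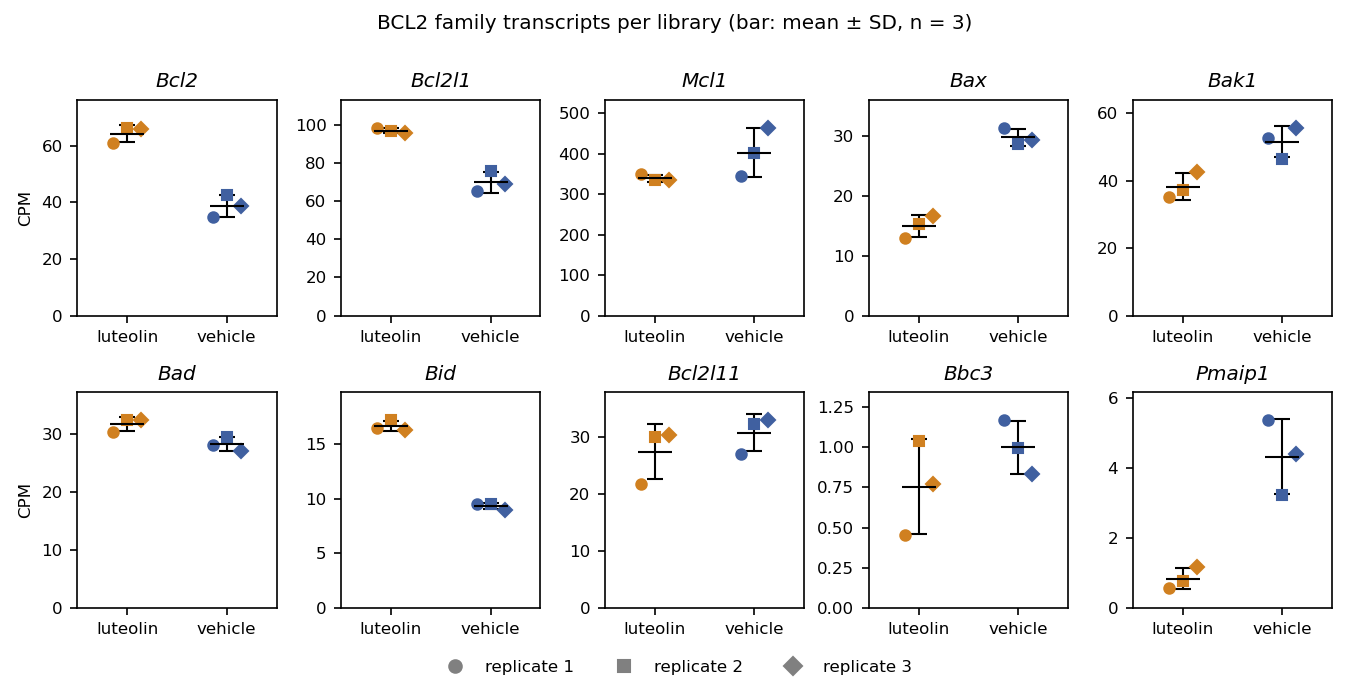
CPM values (counts scaled to library size with TMM factors) of the 10 BCL2 family genes, with each library as a point, luteolin left of vehicle, and the mean ± SD of 3 libraries as a bar; each panel has its own axis, which starts at 0. The groups lie apart for Bcl2, Bcl2l1, Bax, Bak1, Bad, Bid and Pmaip1, and overlap for Mcl1, Bcl2l11 and Bbc3. That is 7 of 10 members, beside 67.4% of all tested genes.

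Among the antiapoptotic genes, Bcl2 (gene ID 12043), the founding member of the family, had 60.9, 66.4 and 65.8 CPM in the luteolin libraries, against 34.8, 42.5 and 38.8 CPM in the vehicle libraries. Every luteolin library was above every vehicle library. Bcl2 was 1.66-fold higher, or 0.73 on the log2 scale (SE 0.0852; adjusted p = 0.000412, edgeR).

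Bcl2l1 (gene ID 12048), whose long product BCL-XL guards many epithelial cells, had 98.6, 97.0 and 95.9 CPM with luteolin and 65.2, 75.8 and 69.0 CPM with vehicle. Again the groups lay apart, and the luteolin libraries were close together. Bcl2l1 was 1.39-fold higher, or 0.47 on the log2 scale (SE 0.0675; adjusted p = 0.000971, edgeR). The table gives 1 value per gene, so the long product and the short proapoptotic one that splicing makes from Bcl2l1 could not be separated.

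Mcl1 (gene ID 17210), which encodes a short-lived antiapoptotic protein, had 350, 334 and 335 CPM in luteolin libraries, against 344, 401 and 463 CPM in vehicle libraries. Luteolin libraries were tightly grouped, while vehicle libraries were spread and the lowest of them fell among the luteolin values. The log2 fold change of -0.25 (SE 0.106) did not pass (edgeR adjusted p = 0.0800). It passed in 6 of 18 alternatives, among them library sizes as the only scaling (-0.36, adjusted p = 0.0149) and leaving out vehicle 1 (-0.36, adjusted p = 0.0132). Without vehicle 3 it was -0.15 and did not pass (edgeR adjusted p = 0.160).

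Both effectors, which form the pores in the outer mitochondrial membrane, fell. Bax (gene ID 12028) had 12.9, 15.3 and 16.5 CPM with luteolin, against 31.3, 28.6 and 29.3 CPM with vehicle. The highest luteolin library was well below the lowest vehicle library. Bax was 1.996-fold lower, or -0.997 on the log2 scale (SE 0.107; adjusted p = 0.000302, edgeR), the smallest p among the members.

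Bak1 (gene ID 12018), the effector that sits in the mitochondrial membrane also in healthy cells, had 35.1, 37.2 and 42.6 CPM in luteolin libraries and 52.6, 46.5 and 55.6 CPM in vehicle libraries. The groups did not overlap, although the gap between luteolin 3 and vehicle 2 was small. The decrease was less than that of Bax, at -0.43 on the log2 scale (SE 0.0992; adjusted p = 0.00803, edgeR), or 1.35-fold; the difference between the effectors was not tested.

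The BH3-only genes went in both directions. Bid (gene ID 12122), whose protein is cut by caspase-8 and links death receptors to mitochondria, had 16.4, 17.2 and 16.3 CPM with luteolin, against 9.46, 9.48 and 8.997 CPM with vehicle. Libraries within each group were nearly equal and the groups were far apart. Bid was 1.78-fold higher (log2 fold change 0.84, SE 0.0954, edgeR adjusted p = 0.000387), the opposite direction to Bax and Bak1.

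Pmaip1 (gene ID 58801), which encodes NOXA, an antagonist of MCL1 that p53 can induce, was the member with the largest fold change. It stood at 0.580, 0.780 and 1.16 CPM in luteolin libraries, from 9, 12 and 18 counts, against 5.37, 3.22 and 4.41 CPM in vehicle libraries, from 92, 55 and 74 counts. Even the lowest vehicle library was above every luteolin library. The count minimum of 10 was reached in every vehicle library but not in luteolin 1, so the lower value follows in part from the filter. Pmaip1 was 5.12-fold lower (log2 fold change -2.36, SE 0.329, edgeR adjusted p = 0.000886). On the log2(FPKM + 1) scale, which understates changes of low genes, the difference was -1.12 and still passed with limma-trend (adjusted p = 0.000856).

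Bad (gene ID 12015), whose protein is held inactive by phosphorylation in growing cells, had 30.3, 32.4 and 32.4 CPM with luteolin and 28.1, 29.5 and 27.1 CPM with vehicle. The groups lay apart by less than 1 CPM at their nearest libraries. A log2 fold change of 0.17 (SE 0.0705) did not pass (edgeR adjusted p = 0.0771), and it depended on the scaling: it was -0.00597 on log2(FPKM + 1) and 0.37 after a correction for gene length (edgeR adjusted p = 0.00337). Without vehicle 2 it was 0.20 and passed (edgeR adjusted p = 0.0493). Bad was the only member whose counts had decimals, in all 6 libraries, so part of its reads was divided with another gene and its values are uncertain.

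Bcl2l11 (gene ID 12125), which encodes BIM, a strong activator of apoptosis in lymphoid cells, had 21.8, 30.0 and 30.3 CPM with luteolin, against 27.0, 32.2 and 32.9 CPM with vehicle. Luteolin 1 was the lowest of the 6 libraries, and the groups overlapped. Its difference of -0.16 on the log2 scale (SE 0.144; adjusted p = 0.355, edgeR) did not pass and was -0.04 without luteolin 1.

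Bbc3 (gene ID 170770), which encodes PUMA, a p53 target, was near the limit of what this depth could measure. It had 7, 16 and 12 counts in luteolin libraries and 20, 17 and 14 counts in vehicle libraries. The groups overlapped, and no difference was detectable at this depth (log2 fold change -0.40, SE 0.372, edgeR adjusted p = 0.379). The value was -0.15 without luteolin 1 and -0.72 without luteolin 2, and passed in neither.

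**Figure D2:**
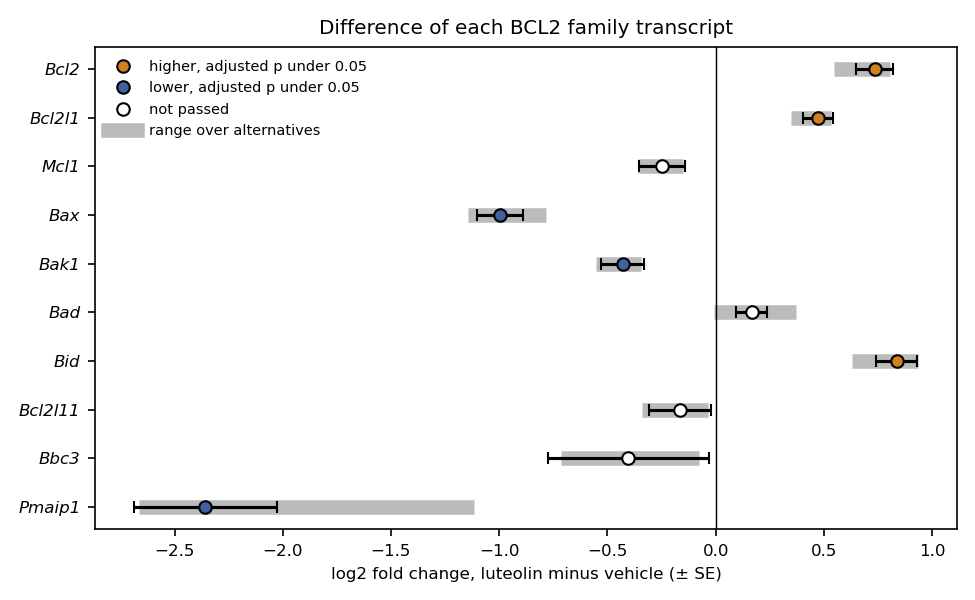
Log2 fold change of each member, luteolin minus vehicle (point), with its standard error (line) and the range over 18 alternative analyses, 17 for Bbc3 (grey band). The bands of Bcl2, Bcl2l1 and Bid stay above 0 and those of Bax, Bak1 and Pmaip1 below 0, while that of Bad reaches just below 0; the band of Pmaip1 reaches -1.12, its value with a pseudocount of 1 FPKM.

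Reads may also be shared by position, since the notes do not say whether counting used strand. In the RefSeq table of GRCm38.p6, another build than the mm9 of the submitters' processing notes, protein-coding neighbours overlap Bcl2l1 (Cox4i2), Bcl2l11 (Acoxl), Bak1 (Ggnbp1) and Bad (Gpr137). Counts of Bad had decimals in every library, so reads of that pair may not be told apart. Counts of Bcl2l1, Bcl2l11 and Bak1 had no decimals in any library, so no division of reads with a neighbour was seen for them. Bax, Mcl1, Bbc3 and Pmaip1 have no overlapping gene in that table.

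The RefSeq promoter windows are shown for Bcl2 and Bid, which rose, and Bax, which fell. Of the called members searched, these 3 had a single annotated start and at least 1 match to a searched motif. Pmaip1, also called, was the member not searched, so whether it meets this rule is not known. Each run is the 250 bases before the start in GRCm38.p6, 5′ to 3′ on the gene's strand. Capitals mark matches on either strand to any of 9 motifs: GGGCGG (GC box), TGANTCA (AP-1 site), CACGTG (E-box), GTAAACA (FOXO site), TTCNNNGAA (STAT site), TGACG (CRE half-site), CCAAT, and the p53 half-site and NF-kB site by name.
Bcl2, chr1:106714291-106714540, minus strand: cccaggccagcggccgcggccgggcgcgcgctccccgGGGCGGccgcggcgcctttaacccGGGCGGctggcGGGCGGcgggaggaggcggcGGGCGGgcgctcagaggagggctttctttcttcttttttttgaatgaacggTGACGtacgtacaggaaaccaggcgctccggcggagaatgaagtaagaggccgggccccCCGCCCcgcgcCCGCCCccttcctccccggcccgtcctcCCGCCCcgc
Bid, chr6:120916825-120917074, minus strand: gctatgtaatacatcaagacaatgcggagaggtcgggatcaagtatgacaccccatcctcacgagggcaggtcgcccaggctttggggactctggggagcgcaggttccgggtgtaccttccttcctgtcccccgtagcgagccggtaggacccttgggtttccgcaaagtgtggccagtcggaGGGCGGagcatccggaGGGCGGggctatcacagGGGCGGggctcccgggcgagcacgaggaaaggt
Bax, chr7:45466899-45467148, minus strand: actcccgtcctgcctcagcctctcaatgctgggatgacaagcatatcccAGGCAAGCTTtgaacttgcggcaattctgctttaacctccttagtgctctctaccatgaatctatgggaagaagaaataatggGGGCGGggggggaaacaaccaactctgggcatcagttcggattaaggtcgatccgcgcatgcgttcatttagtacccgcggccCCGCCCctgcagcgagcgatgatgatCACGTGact

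The Bcl2 window was 74.8% G and C and held 7 GC boxes and 1 CRE half-site, and the Bid window was 63.6% G and C and held 3 GC boxes. The Bax window, at 54.0% G and C, held 2 GC boxes, 1 E-box beside the start and 1 p53 half-site, AGGCAAGCTT, 201 bases upstream. Over all 32851 windows in the table the median was 52.4% G and C, 32.7% held a GC box, 6.02% an E-box, 17.8% a CRE half-site and 7.13% a p53 half-site. Of the 9 members searched, with 15 windows in all, 7 had a GC box in at least 1 of their windows. This counts genes, some with several windows, so it is not comparable with the 32.7% of single windows. Matches describe letters, and nothing was measured of any factor there.

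Levels per transcript length, in TPM, put Mcl1 first in both groups, at 156 ± 5.60 TPM with luteolin and 185 ± 24.4 TPM with vehicle (SD, n = 3). Below it the order differed between groups. In luteolin libraries Bad (66.0 ± 1.31 TPM) and Bcl2l1 (64.2 ± 1.92 TPM) overlapped, and Bax (39.0 ± 4.17 TPM) and Bak1 (33.1 ± 3.04 TPM) overlapped below them (SD, n = 3). In vehicle libraries Bax was second, at 79.1 ± 4.93 TPM, above Bad (60.9 ± 3.19 TPM), and Bcl2l1 (46.1 ± 3.56 TPM) overlapped with Bak1 (44.7 ± 3.71 TPM; SD, n = 3).

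The less abundant members also changed places. Bid stood at 15.4 ± 0.455 TPM in luteolin libraries, just above Bcl2 at 13.7 ± 0.465 TPM, with Bcl2l11 lower at 9.05 ± 1.45 TPM (SD, n = 3). With vehicle Bcl2l11 led this group at 10.5 ± 0.864 TPM, and Bid (8.63 ± 0.400 TPM) and Bcl2 (8.20 ± 0.759 TPM) overlapped (SD, n = 3). Pmaip1 was last with luteolin, at 0.527 ± 0.178 TPM and overlapping with Bbc3, and above Bbc3 with vehicle, at 2.71 ± 0.695 TPM (SD, n = 3).

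Summed by role, the antiapoptotic members came to 242, 231 and 229 TPM with luteolin and 212, 244 and 262 TPM with vehicle, and these overlapped. The increases of Bcl2 and Bcl2l1 and the lower mean of Mcl1 offset each other in this sum. Effectors summed to 65.1, 72.1 and 79.1 TPM with luteolin, against 131, 117 and 123 TPM with vehicle, with no overlap. They made up 18.1 ± 1.67% of the summed TPM of the 10 members in luteolin libraries and 27.8 ± 2.48% in vehicle libraries (SD, n = 3). BH3-only members made up 23.1 ± 0.675% with luteolin and 18.8 ± 1.43% with vehicle (SD, n = 3), most of it Bad in both groups.

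The ratio of Bax to Bcl2 transcripts, a common summary of this family, was 2.60, 2.84 and 3.06 in luteolin libraries, against 11.3, 8.47 and 9.43 in vehicle libraries. The mean ratio was 3.43 times lower with luteolin. The ratio of Bax to Bcl2l1 was 0.520, 0.624 and 0.683 with luteolin, against 1.95, 1.52 and 1.70 with vehicle. Bax transcripts were thus fewer than Bcl2l1 transcripts in every luteolin library and more numerous in every vehicle library. The ratio of Bcl2l11 to Mcl1 overlapped between groups, at 0.0581 ± 0.0111 with luteolin and 0.0570 ± 0.00328 with vehicle (SD, n = 3). These ratios combine values tested singly above and are descriptions, with no test.

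**Figure D3:**
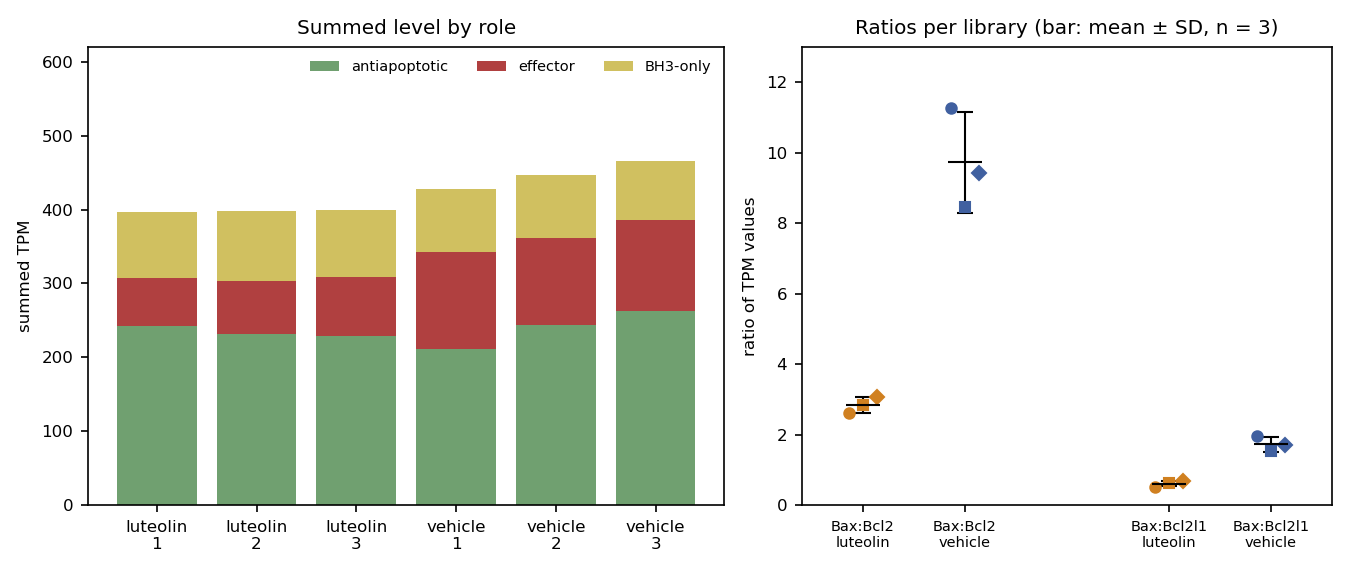
Left, summed TPM of the antiapoptotic (Bcl2, Bcl2l1, Mcl1), effector (Bax, Bak1) and BH3-only (Bad, Bid, Bcl2l11, Bbc3, Pmaip1) members in each library; right, ratios of Bax to Bcl2 and to Bcl2l1 TPM in each library, with mean ± SD of 3 libraries. Effector bars are 65.1 to 79.1 TPM with luteolin and 117 to 131 TPM with vehicle, and no luteolin ratio reaches a vehicle one.

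Other genes of the family, 16 in all with 13 tested, also moved both ways: 5 rose, 4 fell and 4 did not pass (median log2 fold change 0.16). The lower genes were led by copies of Bcl2a1, an antiapoptotic gene of leukocytes that mice carry as near-identical copies. Bcl2a1b had 7, 7 and 3 counts in luteolin libraries, against 71.0, 86.0 and 93.8 in vehicle libraries, and differed by -3.72 on the log2 scale (SE 0.328; adjusted p = 0.000149, edgeR). Bcl2a1d summed to 6 counts with luteolin and 81.9 with vehicle, Bcl2a1a to 3 with luteolin and 49.3 with vehicle, and the untested Bcl2a1c to 0 with luteolin and 8 with vehicle. All 3 tested copies had counts with decimals, so the division of reads between them is uncertain. These 3 copies reached the count minimum in vehicle libraries alone, so their lower values follow in part from the filter.

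Leukocyte markers moved with these copies. All 11 macrophage and dendritic cell markers fell (median log2 fold change -3.01), and they summed to between 70.8 and 119 TPM with luteolin and between 640 and 1333 TPM with vehicle. The 8 neutrophil markers summed to 3.96 to 14.8 TPM with luteolin and 148 to 337 TPM with vehicle; 5 were tested, most of which reached the count minimum in vehicle libraries alone, so that their lower values follow in part from the filter. S100a8, Ly6g, Mmp8, Ngp and Retnlg were at 0 counts in every luteolin library, where 3 counts over the group, a limit that covers counting error only, would be 0.0646 CPM. With vehicle, S100a8 had 92, 75 and 208 counts and Mmp8 had 39, 13 and 27. Retnlg had 5, 5 and 10, Ly6g 1, 1 and 1, and Ngp 0, 0 and 1 vehicle counts. The vehicle means of Ly6g (0.0588 CPM) and Ngp (0.0199 CPM) lay below that limit, so these genes do not separate the groups. Other neutrophil markers kept reads with luteolin, S100a9 at 8, 8 and 35 counts, Csf3r at 9, 8 and 1, and Cxcr2 at 3, 2.66 and 1. Lymphocyte markers summed to 1.81 to 3.68 TPM with luteolin and 4.71 to 14.2 TPM with vehicle, and of these 10 markers Lck and Cd4 had enough reads to be tested, which they reached mainly in vehicle libraries. The part of these cells in the Bcl2a1, Bax, Bak1 and Pmaip1 results was not tested.

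Outside Bcl2a1 the family's other changes were smaller. Bnip3l (gene ID 12177), a receptor for the removal of mitochondria, was 1.59-fold higher (log2 fold change 0.67, SE 0.0609, edgeR adjusted p = 0.000166), with decimals in 5 libraries. Its relative Bnip3, which hypoxia induces, was lower by contrast (log2 fold change -1.18, edgeR adjusted p = 0.000667). Higher too were the BH3-only gene Bik (1.201), the BAX-like Bok (0.35), Bcl2l13 (0.34) and Bcl2l14 (0.74). Bok passed in 10 of 18 alternatives and lost its call without luteolin 1 or 3 or vehicle 1 or 2 (edgeR adjusted p = 0.0830, 0.0633, 0.0809 and 0.0513), and Bcl2l14 lost its call without luteolin 2 or vehicle 1 (edgeR adjusted p = 0.0630 and 0.0565). Bcl2l2, which encodes the antiapoptotic BCL-W, did not pass (0.26, edgeR adjusted p = 0.0654) except without vehicle 2 (0.34, edgeR adjusted p = 0.0146), and Bcl2l10 and Hrk had too few reads. S100a9, Ly6g, Mmp8, Ngp, Retnlg, Bcl2a1a, Bcl2a1c, Bcl2l10, Hrk, Bnip3, Bik, Bok, Bcl2l13, Bcl2l14 and Bcl2l2 were named after their values were seen.

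Genes that act after the mitochondrial step also went both ways, with 5 of 17 higher, 7 lower and 5 not passing (median log2 fold change -0.21). Casp9, the initiator caspase of the apoptosome, was 1.62-fold higher (log2 fold change 0.70, SE 0.0780, edgeR adjusted p = 0.000358), while Cycs, the gene of cytochrome c, fell by 0.68 (SE 0.0922, edgeR adjusted p = 0.000773). The apoptosome scaffold Apaf1 fell (-0.31). Inhibitors of apoptosis were divided: Birc2 (0.44, edgeR adjusted p = 0.00114) and Xiap (0.29) rose, and Birc3 (-0.76) and Birc5, also a mitotic gene (-1.34), fell. Xiap lost its call with library sizes only (0.18, edgeR adjusted p = 0.0600), on both FPKM scales and without luteolin 2 (0.25, edgeR adjusted p = 0.0517). Of the dividing cell genes, 9 of 10 fell in the same libraries (median log2 fold change -1.36), and their part in the Birc5 value was not tested. Apaf1, Xiap, Birc3 and Birc5 were named after their values were seen.

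On the death receptor route, which reaches the mitochondrion through Bid, 5 of 10 tested genes fell, 0 rose and 5 did not pass (median log2 fold change -0.30). Fas, the receptor for Fas ligand, was 2.30-fold lower (log2 fold change -1.1997, SE 0.195, edgeR adjusted p = 0.00171), and the TNF receptor gene Tnfrsf1a (-0.42) and its adaptor Tradd (-0.52) also fell. Casp8, whose product cuts BID, fell by 0.18 on the log2 scale (edgeR adjusted p = 0.0340) while Bid itself was higher. The Casp8 call was kept in 10 of 18 alternatives. It was lost with DESeq2 (adjusted p = 0.0776) and with the replicate block (edgeR adjusted p = 0.0563). The call was also lost with skeletal muscle markers as a covariate (edgeR adjusted p = 0.0808) and after the gene length correction (edgeR adjusted p = 0.0694). Leaving out luteolin 1 or 2 or vehicle 2 or 3 lost it too (edgeR adjusted p = 0.0755, 0.0891, 0.0600 and 0.0516). Casp8 was named after its value was seen.

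For p53 and its targets, 4 of 16 genes rose, 4 fell and 8 did not pass (median log2 fold change 0.01). Trp53 itself fell by 0.66 on the log2 scale (SE 0.118, edgeR adjusted p = 0.00262). Among p53 targets in the family, Bax and Pmaip1 fell, while Bbc3 did not pass (edgeR adjusted p = 0.379). A link between Trp53 and these members was not tested. Eda2r, a TNF receptor family gene, fell (-2.27, edgeR adjusted p = 0.000497), but Sesn1 (0.49), Rrm2b (0.66) and the cell cycle inhibitor Cdkn1a (0.59, edgeR adjusted p = 0.00339) rose. Eda2r had 6, 8 and 7 counts with luteolin, against 40, 33 and 40 with vehicle. It reached the count minimum in vehicle libraries alone, so its lower value follows in part from the filter. Mdm2, which marks p53 activity in many tissues, did not pass (0.01, SE 0.0690), and its sign turned in 7 of 18 alternatives. Trp53, Cdkn1a and Mdm2 were named after their values were seen.

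Among 14 transcription factors and ubiquitin system genes that act on the family, 4 rose, 4 fell and 6 did not pass (median log2 fold change 0.16); without luteolin 1, 5 of the 14 were called. Huwe1, a ubiquitin ligase for MCL1, was 1.56-fold higher (log2 fold change 0.64, SE 0.0524, edgeR adjusted p = 0.000118). Foxo3, a transcription factor that can induce Bcl2l11 and Bbc3, was 1.63-fold higher (0.71, SE 0.0766, edgeR adjusted p = 0.000313). Neither Bcl2l11 nor Bbc3 passed, and a link between Foxo3 and these members was not tested. E2f1 fell (-1.18, edgeR adjusted p = 0.00156).

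**Figure D4:**
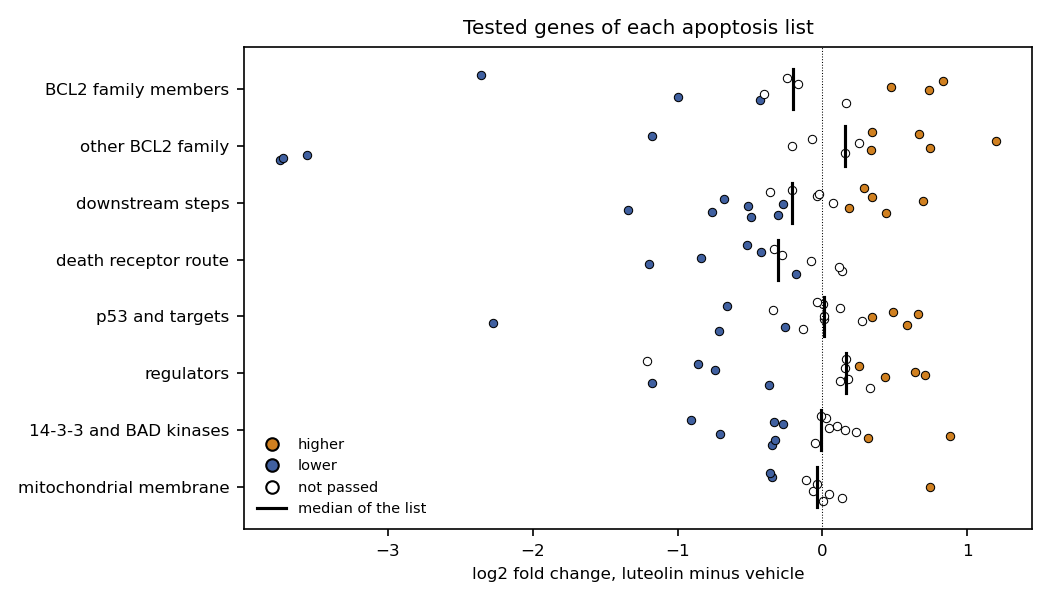
Log2 fold change, luteolin minus vehicle, of the tested genes in the BCL2 family and in 7 related gene lists; each point is a gene, filled where its adjusted p was under 0.05, and the black line is the list's median. The medians lie between -0.30 and 0.16, and the points at the far left are the 3 tested Bcl2a1 copies, of which Bcl2a1a rests on 3 luteolin counts.

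Across the 6 libraries, Pearson's r of log2 CPM was used to name the tested genes most like Bid and Bax among those with a mean of at least 5 CPM over the libraries, the members with the smallest p in each direction. Those nearest Bid were Chmp2b (r = 0.9994), Hace1 (0.9991) and Mid1ip1 (0.9990), and 201 of 11125 genes had an r above 0.99 with it. Those nearest Bax were Ptprz1 (0.9993), Slc1a5 (0.9992) and Smo (0.9971), with 61 genes above 0.99. With 6 points in 2 groups that stand apart, a high r mostly repeats the difference between groups, and it is given as a description.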

How the data were processed

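Illumina TruSeq libraries were made from Trizol-extracted RNA of flash-frozen whole corneas, per the labels' protocols. Per the submitters' processing notes, RSEM 1.2.12, Bowtie2 2.2.5 and the build mm9 were used; what each did, the annotation and strand use are not given in the sources at hand. The authors deposited estimated counts, FPKM and TPM per gene, and normalized counts, a signal in which counts were divided by 1 factor per library. The deposited group averages (8 columns) and the normalized counts were not used.

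Estimated counts were rounded, filtered (filterByExpr, minimum count 10, total 15; 3956 genes removed), scaled by TMM and compared, luteolin minus vehicle, with edgeR 4.0.16 (quasi-likelihood test, R 4.3.3); p-values were adjusted over all 13838 genes at 0.05. SE is the log2 fold change over the square root of F. Alternatives used DESeq2 1.42.0, limma 3.58.1 on FPKM, other factors and filters, robust dispersion, covariates, a gene length correction and left-out libraries. Code was tested on simulated data.

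Members and lists were chosen with earlier results of these data known. The rule was to name all members, the 3 genes of each list with the smallest p, and the 3 most like Bid and Bax. The macrophage, keratocyte, muscle and dividing cell lists are given as summaries only, without these names. Other listed genes that are named are marked. Sequences are RefSeq's (GRCm38.p6).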

Additional observations from a re-analysis of the deposited data

How the results depend on the processing

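The calls and directions of Bcl2, Bcl2l1, Bax, Bak1, Bid and Pmaip1 held in all 18 alternatives, leaving out each library included, and Bcl2l11 and Bbc3 were called in none (17 for Bbc3, which a filter of 1 CPM removed). The number of members called was 6 or 7. Bad was the member that changed sign, to -0.00597 on log2(FPKM + 1) and -0.00607 on log2(FPKM + 0.1); the cause was not tested. Mdm2, near 0, was -0.0843 with upper quartile factors, -0.103 with library sizes only, -0.119 on log2(FPKM + 1), -0.122 on log2(FPKM + 0.1), -0.0133 with the muscle covariate and between -0.0576 (without vehicle 1) and 0.0406 (without vehicle 3) when 1 library was left out; the cause was not tested. Bad was called after a correction for gene length and without vehicle 2. Over all genes, 8157 were called, 7972 with DESeq2, and between 6795 and 8493 when 1 library was left out. The higher share fell with library sizes only (2943 higher, 5153 lower) and upper quartile factors (3083 and 5004), under which all genes had a median of -0.13 and -0.11, and with log2(FPKM + 1) (2787 and 5203), against 3949 and 4208 with TMM. Same-numbered libraries did not deviate together (r -0.15, 0.03 and 0.01). With the replicate number as a block 7934 genes and 6 members were called. The log2 difference of the Bax:Bcl2 ratio (-1.77) ran from -1.87 to -1.66 when 1 library was left out, and that of Bcl2l11:Mcl1 from -0.08 to 0.18. FPKM in place of TPM, tried after seeing the data, also gave -1.77 for Bax:Bcl2. Within a library these measures differ by 1 factor, so the match was fixed beforehand and is no separate check. The gene length correction was not applied to the ratios. It changed the log2 fold change of Bax to -0.78 and of Bcl2 to 0.61, both smaller in size than in the main fit. Depth limits Bbc3, with 7 to 20 counts per library. In luteolin libraries it also limits Pmaip1, with 9 to 18 counts, and the Bcl2a1 copies, with 0 to 7.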

Other observations

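BAD is bound by 14-3-3 proteins once it is phosphorylated, and transcripts of these partners and kinases changed in both directions. Of 15 such genes 2 rose, 6 fell and 7 did not pass (median log2 fold change -0.01). The 14-3-3 genes Ywhah (-0.91, SE 0.0723, edgeR adjusted p = 0.000112) and Ywhag (-0.33, edgeR adjusted p = 0.00182) fell, and the BAD kinase gene Pim1 rose (0.88, SE 0.141, edgeR adjusted p = 0.0016).

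Of 9 genes of outer membrane channels and of mitochondrial fusion and fission, 1 rose, 2 fell and 6 did not pass (median log2 fold change -0.04). The fusion gene Mfn2 was 1.67-fold higher (log2 fold change 0.74, SE 0.0711, edgeR adjusted p = 0.000194). Vdac2, a channel that holds BAK in the membrane, fell by 0.35 (SE 0.0538, edgeR adjusted p = 0.00133) and Vdac3 fell by 0.36 (SE 0.0657, edgeR adjusted p = 0.00272) on the log2 scale.

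Other tissue markers differed between the libraries as well. Of 10 blood and lymphatic vessel markers 9 fell (median log2 fold change -2.44), led by Cdh5, Vwf and Plvap. Of 10 corneal epithelium markers 7 rose, Pax6 and Klf5 among them, and Krt14 fell. Of 10 keratocyte markers 4 fell (2 with the robust fit, with the muscle covariate or without luteolin 1, luteolin 3 or vehicle 1, 7 without vehicle 3 and 9 with the replicate block), and they summed to between 1189 and 2574 TPM with luteolin and between 1785 and 5691 TPM with vehicle. Skeletal muscle markers followed single libraries rather than groups, with a mean log2 CPM of -0.35, -0.70 and 3.06 in luteolin 1, 2 and 3 and of 3.54, 4.26 and -1.32 in vehicle 1, 2 and 3; with this mean as a covariate the 6 calls among the members were kept and Mcl1 passed too (-0.30, edgeR adjusted p = 0.0404).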
